A study of Mus musculus with 6 samples.

Results

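The motile cilia genes described here were the protein-coding genes of the hippocampal table named Cfap, Dnah, Rsph or Tekt with a number, together with Foxj1 and Ccdc153. These were 61 of the 54532 genes in the table, and their names, not their levels, chose them. They comprised 31 Cfap genes, 15 Dnah genes, 8 Rsph genes, 5 Tekt genes and the named pair. One further matching name, the antisense transcript Dnah2os, had another biotype and was left out. RNA sequencing was carried out on the hippocampus of WT (wild-type) and TG mice, with 3 libraries of each numbered as mice 1 to 3 in the labels. No source used here states whether animals were pooled. TG mice carried a CRISPR/Cas9 knock-in of the substitutions G82R and L85P in exon 3 of Slc1a2, the gene of the astrocytic glutamate transporter GLT-1, on a C57BL/6N background. Founders were mated with C57BL/6 mice, and the study took WT littermates as controls. WT mice carried no edited allele, and the labels name no other treatment. The zygosity, age and sex of the sequenced mice were not given in the sources used here. The study's mice of each genotype included males and females. FPKM carry no base calls, so the knock-in could not be checked in these values. The values were FPKM, fragments per kilobase of gene relative to the mapped reads of the library, so levels of different genes can be set side by side.

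A motile cilium is built on an axoneme, a ring of doublet microtubules around a central pair. Outer and inner rows of dynein arms drive the beat, radial spokes pass signals between the central pair and the arms, and tektins run along the inside of the doublets. In the brain such cilia stand in tufts on ependymal cells, which line the ventricles and move cerebrospinal fluid. Foxj1 and the RFX factors switch on the genes of the axoneme. Choroid plexus epithelium, which lies in the ventricles beside the hippocampus, secretes the fluid and also carries cilia. Most neurons and astrocytes carry a single immotile primary cilium, which shares intraflagellar transport but not the dynein arms.

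The libraries held 16081281 to 18751057 reads on genes, and 3 reads on a gene of 1 kb corresponded to 0.160 to 0.190 FPKM. Of the TG libraries, 2 stood apart. All 18 choroid plexus genes on the list used here were above every WT library in TG1 and in TG2, against 5 of 18 (27.8%) in TG3. Over all genes tested these shares were 27.7%, 23.6% and 23.3% for TG1, TG2 and TG3. The summed level of the 18 genes was 60.0 to 88.9 FPKM in WT libraries and 1234, 3887 and 71.2 FPKM in TG1, TG2 and TG3. None of the 18 was at 0 in any library. Ttr, which encodes transthyretin and was the most abundant of them, stood at 73.0, 49.8 and 66.6 FPKM in WT1 to WT3 and at 1168, 3705 and 57.7 FPKM in TG1 to TG3. Kcnj13, a potassium channel gene with the lowest p among them (limma, unadjusted p = 0.0138, adjusted p = 0.786), stood at 0.511, 0.244 and 0.294 FPKM in WT and at 4.98, 13.0 and 0.610 FPKM in TG mice. The summed level of 9 meningeal genes was 18.7 to 45.5 FPKM in WT and 24.5 to 34.7 FPKM in TG libraries, with WT1 the highest. The most abundant of these, Dcn, stood at 7.86 to 14.1 FPKM in WT and 8.68 to 10.9 FPKM in TG libraries, Ogn had the smallest p (limma, unadjusted p = 0.244, adjusted p = 0.789), and 0 of 9 passed the unadjusted test. Neuron genes (170 to 221 against 177 to 180 FPKM) and astrocyte genes (360.5 to 417 against 358 to 368 FPKM) overlapped in their sums. Of the neuron genes 1 of 6 was lower before adjustment, beside 2.78% of all genes tested. It was Calb1, at 25.8, 28.2 and 34.6 FPKM in WT and 23.7, 24.4 and 22.6 FPKM in TG mice (limma, unadjusted p = 0.0245, adjusted p = 0.786). Of the astrocyte genes 0 of 4 passed the unadjusted test. Over all genes tested, 5.91% passed it in either direction. The abundant hippocampal genes Neurod6 (71.5 to 91.0 FPKM) and Aldoc (249 to 315 FPKM) were present in all 6 libraries.

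Motile cilia genes as a group did not separate TG from WT mice. Of the 61 genes, 56 had a mean of at least 0.1 FPKM and were tested. The median log2 fold change, TG minus WT on log2(FPKM + 0.1), was -0.01, beside -0.00 over all 20952 genes tested, with 26 of the 56 above 0 and 30 below. At an unadjusted p under 0.05 in limma, 0 were higher and 2 were lower in TG mice, the ependymal marker Ccdc153 and Cfap20. Together these were 3.57% of the tested members. Over all genes 3.13% were higher and 2.78% lower, or 5.91% in either direction. None passed a Benjamini-Hochberg adjusted p of 0.05 over all genes (smallest adjusted p = 0.786 by limma), where 0.00955% of all genes did, and limma-voom on the reads recovered from the FPKM also called 0 after adjustment and 1 (Ccdc153) before it. All 3 TG libraries lay below all 3 WT libraries for Ccdc153, Cfap20 and Dnah1, and above them for 0 members. Over all genes 5.71% were so placed below and 6.35% above, or 12.1% either way. In bulk tissue, fewer cells of a type and less RNA per cell cannot be told apart.

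**Figure D1:**
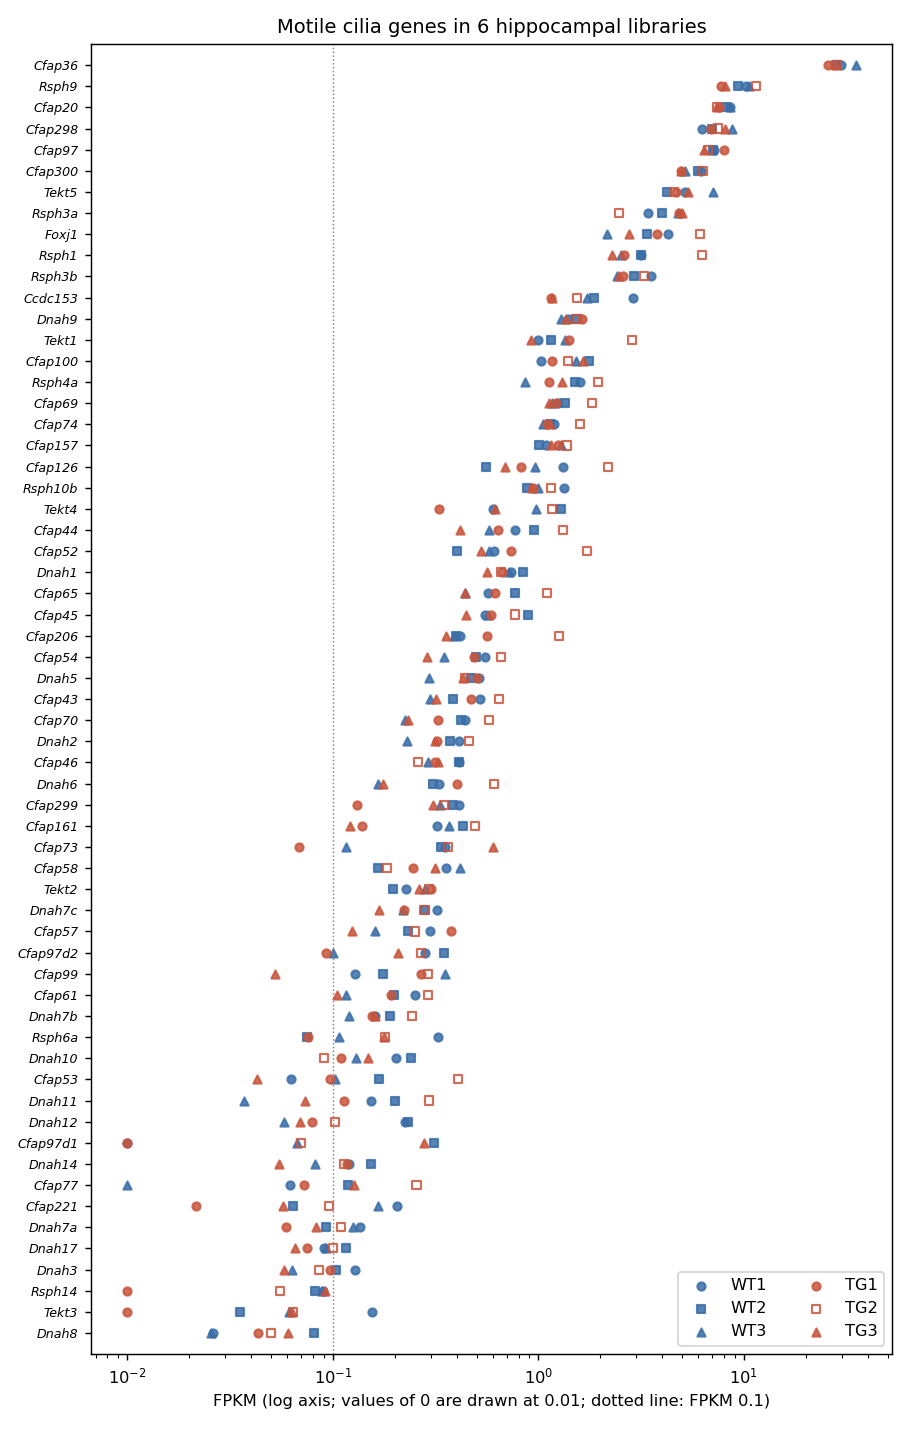
FPKM of the 61 motile cilia genes in each library, on a log axis with values of 0 drawn at 0.01; markers stand for the libraries, with TG2 as open markers, and the dotted line is the 0.1 FPKM minimum for testing. Cfap36 is the only gene with a mean above 10 FPKM, and 40 of the 61 have a mean under 1 FPKM.

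Most of these genes had low levels per length, though long ones such as Dnah1 still held 133 to 178 reads a library. Of the 61 genes, 21 had a mean of at least 1 FPKM, and 9 averaged under 10 reads a library. The 5 that were not tested were Dnah17 (0.0652 to 0.115 FPKM over the 6 libraries), Dnah3 (0.0581 to 0.129 FPKM), Dnah8 (0.0256 to 0.0807 FPKM), Rsph14 (0 to 0.0919 FPKM) and Tekt3 (0 to 0.155 FPKM). Rsph14 and Tekt3 were at 0 in TG1, Cfap97d1 in WT1 and TG1, and Cfap77 in WT3. A value of 0 allows up to 3 reads, counting error only. The 21 genes with a mean of at least 1 FPKM had a median log2 fold change of -0.01, and the 35 genes tested under 1 FPKM had one of -0.03.

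Foxj1 (ENSMUSG00000034227, chromosome 11, 116330704 to 116335399, minus strand, GRCm38), the forkhead factor at the head of the motile cilia programme, stood at 4.29, 3.38 and 2.16 FPKM in WT1 to WT3 and at 3.78, 6.12 and 2.74 FPKM in TG1 to TG3. TG2 was the highest and WT3 the lowest, and the groups overlapped. The means were 3.27 ± 1.07 FPKM in WT and 4.22 ± 1.73 FPKM in TG mice (SD, n = 3 each). The log2 fold change was 0.33 with a standard error of 0.33 (limma, adjusted p = 0.807), so the difference was about the size of its error. Its direction was not stable, at -0.35 with a choroid plexus score as a covariate, -0.19 with TG3 as the only TG library, 0.03 without TG2, 0.07 without WT3 and 0.60 without TG3.

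Ccdc153 (ENSMUSG00000070306, chromosome 9, 44240676 to 44247306, plus strand), a coiled-coil gene used as a marker of ependymal cells, had the smallest p of the tested members. It stood at 2.87, 1.85 and 1.73 FPKM in WT1 to WT3 and at 1.15, 1.53 and 1.17 FPKM in TG1 to TG3, from 37 to 108 reads a library. Every TG library was below every WT library, and WT1 stood above the other WT libraries. The means were 2.15 ± 0.624 FPKM in WT and 1.28 ± 0.217 FPKM in TG mice, and the log2 fold change was -0.68 with a standard error of 0.22 (limma, unadjusted p = 0.0168, adjusted p = 0.786). Without TG1, TG3 or WT1 the unadjusted p was 0.0715, 0.0664 and 0.05, with log2 fold changes of -0.61, -0.62 and -0.46, and with TG3 as the only TG library it was 0.11, at -0.79.

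Among the Cfap genes, which encode a mixed set of cilia- and flagella-associated proteins, 1 of 31 (Cfap20) passed the unadjusted test. This was 3.23%, beside 5.91% of all genes. Of the Cfap log2 fold changes, 15 were above 0 and 16 below. Cfap20 (ENSMUSG00000031796, chromosome 8, 95420249 to 95434869, minus strand), a protein of the junction between the tubules of the doublet that is also found in primary cilia, stood at 8.55, 8.22 and 8.52 FPKM in WT1 to WT3. In TG1 to TG3 it stood at 7.60, 7.42 and 7.41 FPKM, below every WT library. The spread within each group was small, with means of 8.43 ± 0.184 FPKM in WT and 7.48 ± 0.103 FPKM in TG mice. The log2 fold change was -0.17 with a standard error of 0.07 (limma, unadjusted p = 0.0377, adjusted p = 0.786). Without TG2, TG3 or WT1 the unadjusted p was 0.0652, 0.0697 and 0.0693, and with the choroid plexus covariate it was 0.16. Of its 50-base stretches, 4.36% were shared with other genes, mainly Stip1.

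Cfap36, the most abundant motile cilia gene, encodes a binding partner of a small ciliary GTPase. It stood at 29.5, 28.0 and 35.1 FPKM in WT and at 25.6, 28.3 and 28.0 FPKM in TG mice, and the groups overlapped (log2 fold change -0.17, standard error 0.10, limma, unadjusted p = 0.121, adjusted p = 0.789). The other Cfap genes with the smallest p had means under 1 FPKM. Cfap52, a protein of the doublet interior, stood at 0.606, 0.400 and 0.576 FPKM in WT and at 0.735, 1.73 and 0.525 FPKM in TG mice. Cfap206, which is associated with the radial spokes, stood at 0.414, 0.399 and 0.387 FPKM in WT and at 0.560, 1.26 and 0.357 FPKM in TG mice. In both genes TG2 was more than 2-fold above the next library and TG3 lay among or below the WT libraries, and the log2 fold changes were 0.67 (standard error 0.40) and 0.57 (0.40). Without TG2 they were 0.22 for Cfap52 and 0.14 for Cfap206, without TG3 they were 1.00 and 0.92, and with the choroid plexus covariate they were -0.17 and -0.28. Cfap161 stood at 0.322, 0.427 and 0.369 FPKM in WT and at 0.139, 0.490 and 0.122 FPKM in TG mice, with TG1 and TG3 low and TG2 the highest of all. Cfap299 stood at 0.411, 0.385 and 0.332 FPKM in WT and at 0.131, 0.347 and 0.306 FPKM in TG mice, from 3 to 11 reads a library. Of its 50-base stretches 15.3% were shared and 19.1% of its exonic bases overlapped E030032P16Rik on the same strand, so its level is uncertain. The unadjusted limma p of these 4 genes was 0.140, 0.193, 0.220 and 0.226.

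**Figure D2:**
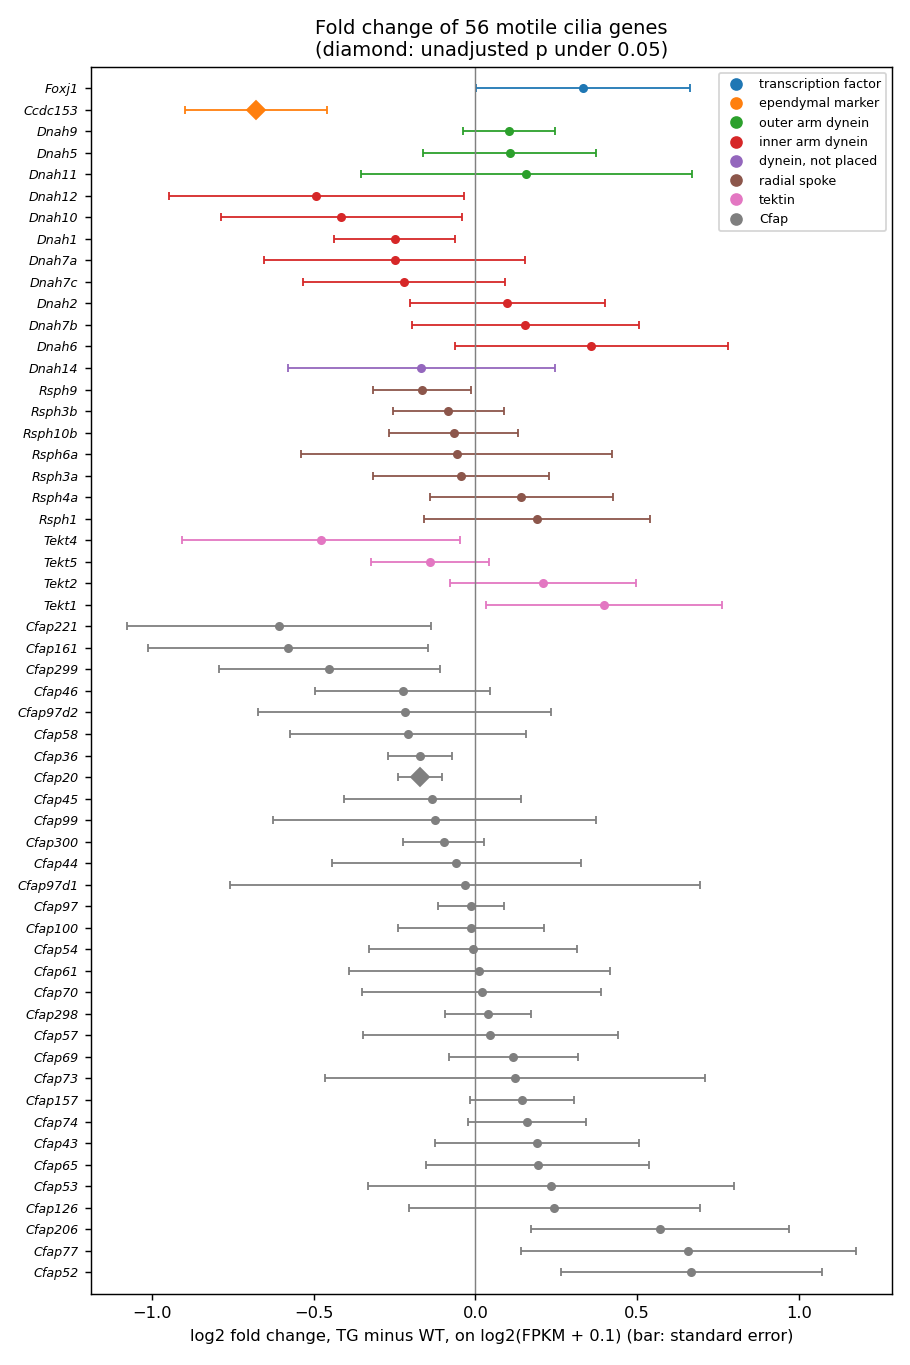
Log2 fold change, TG minus WT on log2(FPKM + 0.1), of the 56 motile cilia genes tested, with standard errors as bars, coloured by role; diamonds mark an unadjusted p under 0.05. The estimates run from -0.68 (Ccdc153) to 0.67 (Cfap52), on both sides of 0 in the Cfap, inner arm, radial spoke and tektin genes.

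The dynein heavy chains are the motors of the axoneme. Of the outer arm chains, Dnah9 was the most abundant, at 1.40, 1.53 and 1.28 FPKM in WT and 1.63, 1.55 and 1.37 FPKM in TG mice. Dnah5 stood at 0.515, 0.471 and 0.294 FPKM in WT and at 0.505, 0.439 and 0.428 FPKM in TG mice. Dnah11 stood at 0.153, 0.201 and 0.0369 FPKM in WT and at 0.114, 0.293 and 0.0728 FPKM in TG mice. WT3 was the lowest library for all 3 outer arm chains tested, and the log2 fold changes were 0.10, 0.11 and 0.16 with standard errors of 0.14, 0.27 and 0.51. The direction turned for Dnah11 without TG2 (-0.19) or WT3 (-0.18) and with the covariate (-0.52), and for Dnah5 without WT3 (-0.09), while that of Dnah9 was -0.01 with the covariate and -0.03 with TG3 alone. Of the inner arm chains, 0 of 8 passed the unadjusted test, beside 5.91% of all genes. The inner arm chains had a median log2 fold change of -0.24, beside -0.002 over all genes. Dnah1, the most abundant inner arm chain, stood at 0.734, 0.845 and 0.721 FPKM in WT and at 0.664, 0.659 and 0.565 FPKM in TG mice. All TG libraries were below all WT libraries, but the log2 fold change of -0.25 had a standard error of 0.19 (limma, unadjusted p = 0.222, adjusted p = 0.789). Dnah10 stood at 0.202, 0.239 and 0.129 FPKM in WT and at 0.110, 0.0902 and 0.148 FPKM in TG mice. Dnah12 stood at 0.225, 0.232 and 0.0578 FPKM in WT and at 0.0789, 0.102 and 0.0692 FPKM in TG mice, so WT3 was below every TG library while WT1 and WT2 were above them. Dnah14, which was not placed in an arm, had a log2 fold change of -0.17 with a standard error of 0.41.

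Of the 8 radial spoke genes, 6 had a mean of at least 1 FPKM. The unadjusted test was passed by 0 of the 7 tested, beside 5.91% of all genes. Rsph9, a spoke head protein, stood at 10.2, 9.39 and 10.6 FPKM in WT and at 7.73, 11.5 and 8.09 FPKM in TG mice. TG1 and TG3 were below every WT library and TG2 above every one, and the log2 fold change was -0.16 with a standard error of 0.15 (limma, unadjusted p = 0.313, adjusted p = 0.791). Rsph1, a second spoke head protein, stood at 3.16, 3.14 and 2.52 FPKM in WT and at 2.61, 6.28 and 2.28 FPKM in TG mice. Rsph4a, also of the spoke head, stood at 1.59, 1.51 and 0.863 FPKM in WT and at 1.13, 1.94 and 1.30 FPKM in TG mice. In both genes TG2 was again the highest library, and the log2 fold changes of 0.19 and 0.14 had standard errors of 0.35 and 0.28. Both turned without TG2, to -0.25 for Rsph1 and -0.07 for Rsph4a, and with the covariate, to -0.56 and -0.16, and Rsph4a also turned without WT3 (-0.12).

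Of the tektins, Tekt5 was the most abundant, at 5.18, 4.21 and 7.06 FPKM in WT and 4.69, 4.57 and 5.36 FPKM in TG mice. Tekt1 stood at 1.00, 1.15 and 1.35 FPKM in WT and at 1.40, 2.85 and 0.922 FPKM in TG mice, with TG2 about 2-fold above the next library and TG3 the lowest. Tekt4 stood at 0.60, 1.29 and 0.976 FPKM in WT and at 0.330, 1.17 and 0.614 FPKM in TG mice, from 8 to 32 reads a library. All 3 overlapped between the groups, with log2 fold changes of -0.14, 0.40 and -0.48 and standard errors of 0.18, 0.37 and 0.43. The unadjusted test was passed by 0 of the 4 tektins tested, beside 5.91% of all genes. Tekt1 turned to -0.02 without TG2 and to -0.40 with the covariate, and was 0.74 without TG3. Tekt4 ran from -0.10 without TG1 to -0.87 without TG2, and Tekt5 was 0.06 without WT3 and 0.01 with the covariate. Tekt2 shared 20.8% of its exonic bases with a gene on the opposite strand, and no source states whether strand was used in counting.

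By their medians, libraries of the same group lay apart in both WT and TG mice. Each gene was set against its own WT mean on the log2 scale, and the median over the 56 genes was then 0.10, 0.09 and -0.16 for the libraries WT1 to WT3 and -0.13, 0.20 and -0.21 for TG1 to TG3. TG2 held the highest FPKM of the 6 libraries for 25 of 56 genes (44.6%), where it did so for 15.7% of all genes tested. TG3 held the highest for 2 of 56 (3.57%, beside 12.3% of all genes) and the lowest for 18. TG2 was above every WT library for 28 of 56 genes (50%, beside 23.6% of all genes), TG1 for 9 (16.1%, beside 27.7%) and TG3 for 3 (5.36%, beside 23.3%). TG3 was below every WT library for 24 of 56 (42.9%, beside 21.8% of all genes), TG1 for 14 (25.0%, beside 26.3%) and TG2 for 7 (12.5%, beside 20.9%). TG2 and TG3, libraries of the same genotype, thus lay on opposite sides of the WT mean, as did WT1 and WT3.

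The height of TG2 differed from gene to gene. Of the 25 genes highest in TG2, 8 were at least 1.5-fold above the next library. These were Cfap53 (2.45-fold, 19 against 7 reads), Cfap52 (2.35-fold), Cfap206 (2.25-fold), Tekt1 (2.04-fold), Cfap77 (2.01-fold, 12 against 6 reads), Rsph1 (1.99-fold), Cfap126 (1.65-fold) and Dnah6 (1.51-fold). Foxj1 was 1.43-fold above the next library and Rsph4a 1.22-fold, while Rsph9, Cfap157 and Cfap300 were under 1.1-fold. TG2 was the highest library for 15.7% of all genes tested. By role, it was so for 16 of 31 Cfap genes. In groups too small to compare, it was so for 3 of 8 inner arm chains, 1 of 3 outer arm chains, 3 of 7 radial spoke genes and 1 of 4 tektins. Ccdc153 was not highest in TG2. The members highest in TG2 were singled out after their values were seen, so their values are a description.

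TG2 was also the library with the most choroid plexus RNA, but the order of the other libraries differed. The choroid plexus genes had a median of 4.60 above the WT mean on the log2 scale in TG2 and of 3.10 in TG1, while the motile cilia genes had medians of 0.20 and -0.13 there. The part that choroid plexus tissue had in the TG2 values was not tested. A choroid plexus score, the mean log2(FPKM + 0.1) of the 18 choroid plexus genes, was also used as a covariate in limma. With it the median log2 fold change of the 56 genes was -0.33, beside -0.0044 over all genes. With TG3 as the only TG library the median of the 56 genes was -0.21, beside -0.0008 over all genes. In these fits 11 and 15 of 56 were above 0. TG3 alone is 1 library with no replicate, so that fit takes its spread from the WT libraries only. The choroid plexus genes were high only in TG1 and TG2 (median 0.07 in TG3), so the covariate was partly confounded with genotype. The covariate fit and the TG3 fit are therefore not independent. With the covariate 0 members passed the adjusted test. In that fit 2 of 56, Ccdc153 and Cfap161, were lower at an unadjusted p under 0.05, beside 1.73% of all genes. Without TG2, the median was -0.16. There 3 of 56, Ccdc153, Cfap161 and Rsph9, were lower at an unadjusted p under 0.05, beside 2.66% of all genes.

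**Figure D3:**
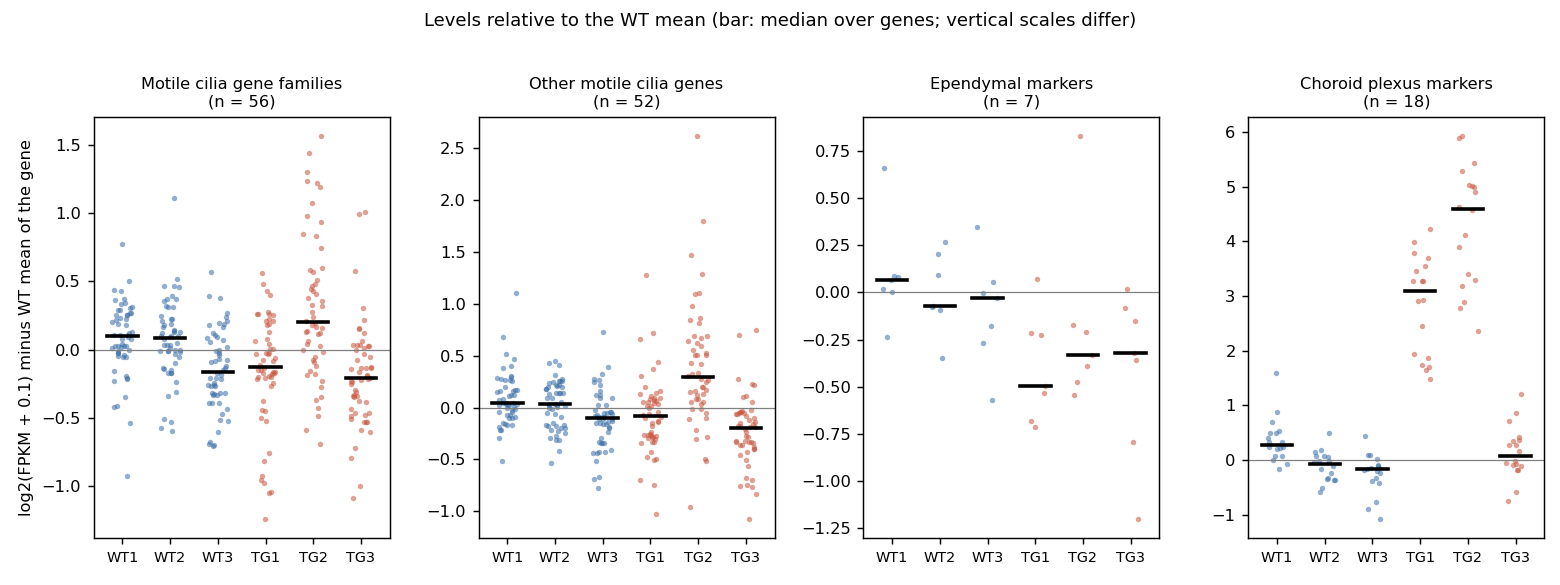
Log2(FPKM + 0.1) minus the WT mean of each gene, in each library, for the motile cilia gene families and for the lists they are compared with; points are genes, bars are medians and the vertical scales differ between panels. Choroid plexus medians are 3.10 in TG1 and 4.60 in TG2 and 0.07 in TG3, while the motile cilia medians are -0.13, 0.20 and -0.21.

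Some ependymal genes outside these families were lower in TG mice before adjustment. Of 8 such markers, 7 were tested, all 7 had a log2 fold change below 0 with a median of -0.34, and 3 passed the unadjusted test, as did 2.78% of all genes in that direction. Their summed level was 16.5 to 17.8 FPKM in WT and 12.9 to 13.5 FPKM in TG libraries, so the groups did not overlap, and Mia was at 0 in WT1 and in all TG libraries. Tmem212, an ependymal membrane protein gene with the smallest p, stood at 2.19, 2.42 and 1.72 FPKM in WT and at 1.24, 1.64 and 0.851 FPKM in TG mice, from 11 to 29 reads a library. Its log2 fold change was -0.75 with a standard error of 0.24 (limma, unadjusted p = 0.0171, adjusted p = 0.786). Cd24a, a surface protein gene that is also expressed by immature neurons and was named after its values were seen, stood at 4.38, 4.10 and 4.49 FPKM in WT and at 3.04, 3.83 and 2.45 FPKM in TG mice. Both genes, and no other of the 7, were lower in every TG library than in every WT library, beside 5.71% of all genes. The unadjusted p was over 0.05 for Tmem212 without TG1 (0.0556), TG3 (0.0552), WT1 (0.0638) or WT2 (0.0795), and for Cd24a without TG1 (0.0602), TG3 (0.0505), WT1 (0.0590) or WT3 (0.0608), by limma with adjusted p over 0.6 in each case. Fam183b, the most abundant of the markers and itself a cilia gene, overlapped at 5.06, 7.21 and 5.84 FPKM in WT and 5.13, 4.53 and 6.05 FPKM in TG mice. The third gene past the unadjusted test, Rarres2, a chemerin gene, stood at 1.81, 1.82 and 1.49 FPKM in WT and at 1.14, 1.13 and 1.52 FPKM in TG mice, where TG3 overlapped WT3, and its unadjusted p was 0.125 to 0.129 without TG1, TG2, WT1 or WT2. With the choroid plexus covariate its log2 fold change was -0.19, beside -0.41 without it (limma, unadjusted p = 0.438, adjusted p = 0.999), while those of Tmem212 and Cd24a were -1.26 and -0.83. None of the 7 passed the adjusted test (limma), and whether these genes differ from the cilia genes was not tested.

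The remaining motile cilia genes, a list of 53 assembly factors, arm and spoke partners, central pair proteins and regulators, also had TG2 highest most often. Of these, 52 were tested, with a median log2 fold change of 0.02, 1 higher and 2 lower at an unadjusted p under 0.05, and 0 past the adjusted test by limma. The 3 genes past the unadjusted test are 5.77% of the list, beside 5.91% of all genes. Tppp3, a microtubule-bundling protein that is also expressed outside ciliated cells, had the smallest p, at 17.2, 20.8 and 20.9 FPKM in WT and 14.5, 16.1 and 15.3 FPKM in TG mice (log2 fold change -0.36, standard error 0.09, limma, unadjusted p = 0.0066, adjusted p = 0.786). It was 1 of 2 genes of the list that were lower in every TG library than in every WT library, beside 5.71% of all genes. In the other direction 1 gene of the list was higher in every TG library, beside 6.35% of all genes. The most abundant, the outer arm light chain gene Dnal1, stood at 20.9, 20.5 and 19.5 FPKM in WT and at 21.1, 21.0 and 19.6 FPKM in TG mice. The other pair past the unadjusted test was Spata18 (higher, log2 fold change 0.92, unadjusted p = 0.0483) and the nexin-dynein regulatory gene Drc1 (lower, -0.31, unadjusted p = 0.0457), each with an adjusted p of 0.786 by limma. Spata18 stayed under 0.05 before adjustment only without WT1, and Drc1 only without TG3 or WT3, while Tppp3 did so without any 1 library (unadjusted p = 0.00133 to 0.0304). With the choroid plexus covariate the log2 fold changes were 0.56 for Spata18 and -0.13 for Drc1 (limma, unadjusted p = 0.34 and 0.467, adjusted p = 0.999 for both). The medians over the WT mean were 0.04, 0.03 and -0.10 for WT1 to WT3 and -0.08, 0.29 and -0.20 for TG1 to TG3. TG2 held the highest FPKM for 27 of 52 genes (51.9%).

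Primary cilium genes, which serve as a comparison without dynein arms, had a median log2 fold change close to 0. All 47 protein-coding genes of the intraflagellar transport, Bardet-Biedl and transition zone list were tested, with a median log2 fold change of -0.02. By limma 0 of 47 passed the unadjusted test in either direction, beside 5.91% of all genes. Every TG library was above every WT library for 2 of them and below for 1, beside 6.35% and 5.71% of all genes. TG2 held the highest FPKM for 10 of 47 (21.3%). Kifap3, the kinesin adaptor and the most abundant, stood at 71.0, 68.6 and 79.0 FPKM in WT and at 74.1, 67.4 and 66.7 FPKM in TG mice. Arl6, a Bardet-Biedl GTPase with the smallest p, stood at 10.3, 9.18 and 11.5 FPKM in WT and at 8.74, 9.33 and 8.26 FPKM in TG mice (limma, unadjusted p = 0.0571, adjusted p = 0.786). Primary cilium genes were more abundant, with a median level of 4.89 FPKM beside 0.439 FPKM for the motile cilia genes, so the shares of the lists rest on unequal depth.

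**Figure D4:**
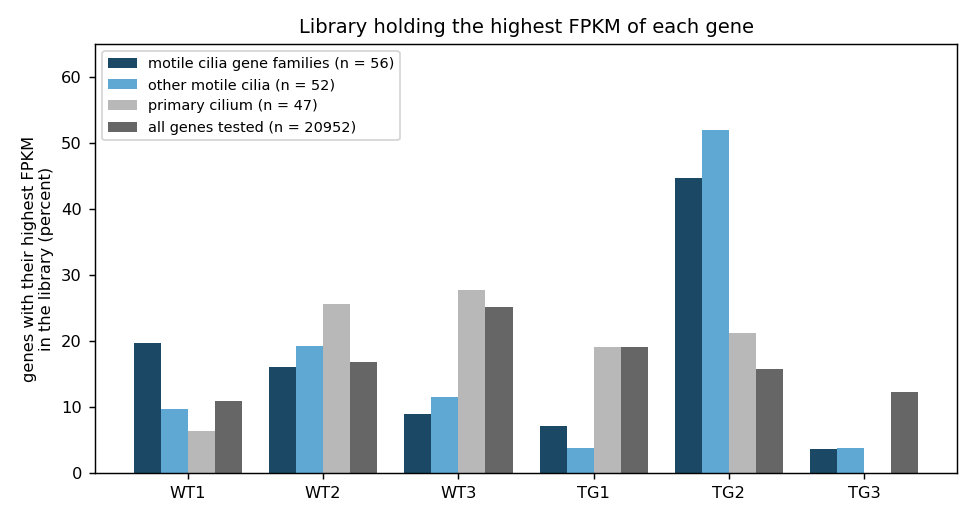
Share of the genes of each list, in percent, that have their highest FPKM in each of the 6 libraries, with the genes tested as the denominator. In TG2 the share is 44.6% for the motile cilia gene families and 51.9% for the other motile cilia genes, beside 21.3% for primary cilium genes and 15.7% for all genes.

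The promoters of 49 of the 61 genes were found in a RefSeq table of GRCm38.p6 windows of 300 bases around the start site and were searched on both strands for motifs of the factors named above. A gene was counted if any of its windows held a match, so genes with several windows had more room for one. The RFX half-site GTTGCC was present in 19 of 49 genes (38.8%), beside 14.1% of the 27025 genes with a window. The fuller X-box form, which reads GTNNCC, any 3 bases and GNNAC, can contain the half-site and was counted in addition to it. It was present in 13 of 49 (26.5%), beside 5.26%. The forkhead motif TGTTTAC or TGTTTGC was present in 8 of 49 (16.3%), beside 9.47%. The half-site was also in 24 of 45 of the other motile cilia genes described above and in 19 of 41 of the primary cilium genes. The X-box form was in 16 of 45 (35.6%) and 13 of 41 (31.7%), both shares above that of the members. The forkhead motif was in 5 of 45 and 0 of 41. A match describes the letters of the window only.

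The 250 bases upstream of the start site are shown for the pair of genes that passed the unadjusted test and for 2 genes that were high in TG2, all chosen after their values were seen. They are written 5′ to 3′ on the strand of the gene, with capitals for any of the 3 motifs on either strand. Ccdc153 lies downstream of chr9:44240427-44240676 (plus strand), Cfap20 of chr8:95434870-95435119 and Cfap206 of chr4:34730207-34730456 (both minus strand). The Tekt1 window, chr11:72361883-72362132 (minus strand), is upstream of a RefSeq start site. It lies inside the gene as counted for the FPKM, which spans 72344722 to 72362442. A further Tekt1 window, chr11:72361297-72361546, held 0 matches and is not shown.
Ccdc153: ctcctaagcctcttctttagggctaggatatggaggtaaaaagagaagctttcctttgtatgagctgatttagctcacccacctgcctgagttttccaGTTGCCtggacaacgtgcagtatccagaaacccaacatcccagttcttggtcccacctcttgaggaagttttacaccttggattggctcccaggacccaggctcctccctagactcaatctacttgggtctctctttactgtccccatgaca
Cfap20: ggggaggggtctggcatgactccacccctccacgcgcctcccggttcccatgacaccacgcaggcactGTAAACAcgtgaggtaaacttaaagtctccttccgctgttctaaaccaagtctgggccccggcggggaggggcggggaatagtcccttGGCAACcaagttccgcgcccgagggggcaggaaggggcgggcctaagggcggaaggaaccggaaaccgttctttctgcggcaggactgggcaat
Cfap206: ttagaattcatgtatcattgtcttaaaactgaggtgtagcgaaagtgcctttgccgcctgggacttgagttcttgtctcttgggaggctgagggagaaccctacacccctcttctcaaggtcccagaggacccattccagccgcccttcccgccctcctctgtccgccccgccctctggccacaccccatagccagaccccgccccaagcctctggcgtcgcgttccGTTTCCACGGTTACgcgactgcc
Tekt1: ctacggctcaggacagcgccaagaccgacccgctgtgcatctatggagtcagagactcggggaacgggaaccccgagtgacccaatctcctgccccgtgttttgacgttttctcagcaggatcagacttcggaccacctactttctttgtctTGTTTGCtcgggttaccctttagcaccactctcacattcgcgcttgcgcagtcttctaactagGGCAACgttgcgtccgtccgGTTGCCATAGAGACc
Ccdc153 held 1 half-site, 152 bases upstream. Cfap20 held 1 half-site at 94 bases and 1 forkhead match at 182 bases. Cfap206 held 1 X-box form at 23 bases and no half-site. The Tekt1 window shown held 2 half-sites, 1 of them inside the X-box form at 15 bases, and 1 forkhead match at 98 bases.

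Some members share sequence with other genes, and the FPKM cannot divide such reads. Of 50-base stretches of their exons, 38.6% in Dnah7a, 29.9% in Dnah7b, 46.8% in Dnah7c, 54.4% in Rsph3a and 62.4% in Rsph3b also occurred in other genes, as did 10.1% in Rsph10b and 7.23% in Cfap97. The log2 fold changes of the first 5 were -0.25, 0.15, -0.22, -0.04 and -0.08, all smaller than their standard errors of 0.40, 0.35, 0.31, 0.27 and 0.17, and their separate levels are uncertain. Rsph3a and Rsph3b, spoke stalk proteins, ran in opposite order in TG2, at 2.46 FPKM (the lowest library) and 3.26 FPKM. Exons on the opposite strand overlapped 53.6% of the exonic bases of Cfap298, a dynein arm assembly factor with 6.26 to 8.74 FPKM and a log2 fold change of 0.04, and 8.36% of those of Cfap52.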

How the data were processed

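Hippocampal RNA of WT and TG mice was sequenced in 3 libraries each. The labels number them as mice, but no source used here states that each is a separate animal, so p-values measure only the spread between these libraries, which may be technical. The authors counted reads per gene with HTSeq v0.6.0 and deposited FPKM computed from the count and the gene length, with 1 column per library. The aligner was not given in the sources used here, and the submitters' processing notes name GRCm38 and mm10. Trizol and NEBNext reagents are named in the methods, RNeasy and SMARTER ones in the labels. Multiplied by gene length, 100% of the values of each library fell on whole reads (tolerance 0.05 reads), which returned the reads per gene and divisors of 15824455 to 18722180. Depth limits genes with few reads, and counting error only is covered by the 3-read floor.

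Genes with a mean of at least 0.1 FPKM (20952) were compared in limma 3.58.1 (R 4.3.3) on log2(FPKM + 0.1) with a trended empirical Bayes variance, WT against TG, no covariate, two-sided, with Benjamini-Hochberg adjustment over all genes tested. An exact permutation test of 3 against 3 cannot go below p = 0.1, so none was used. The script was tested on simulated data. Alternatives were other pseudocounts (0.01 and 1), filters, normalization, variance models, limma-voom, the replicate number as a block, a choroid plexus covariate and leaving out each library; TG3 alone as the TG group was added after the data were seen. Same-numbered libraries did not deviate together. The members, the comparison lists and the tests were chosen with earlier results of these data known. Genes named were Foxj1, Ccdc153, the most abundant member and those with the smallest p of each role group (3, or 6 for Cfap), and the most abundant gene and that with the smallest p of each list; others were chosen after their values were seen. Of 54409 table genes in GENCODE vM21, 53499 had the same start and end, as did 56 of the 61 members. Promoters are RefSeq GRCm38.p6.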

Additional observations from a re-analysis of the deposited data

How the results depend on the processing

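The count of motile cilia genes past an adjusted p of 0.05 was 0 under each of the 17 alternatives (smallest adjusted p 0.636 to 0.999). Their median log2 fold change moved from -0.01 to -0.33 with the choroid plexus covariate and to -0.21 with TG3 alone, and that of the other motile cilia genes from 0.02 to -0.29 and -0.20. Leaving out 1 library, the medians ran from -0.16 (without TG2) to 0.06 and from -0.16 to 0.11. The count higher at an unadjusted p ran from 0 to 1 (Cfap206, without TG3) and was 0 elsewhere. The count lower, 2, was 1 (Ccdc153) with an untrended variance, limma-voom or the replicate block. Over the libraries left out it ran from 0 (without TG3) to 3. It was 1 without TG1 (Cfap20) or WT1 (Ccdc153), and 3 without TG2 (Ccdc153, Cfap161, Rsph9) or WT3 (Ccdc153, Cfap20, Dnah12). Over all genes, 1.94% (without TG1) to 3.42% (without WT2) were lower in these left-out fits, with 2.66% without TG2 and 2.05% without WT3. The share higher without TG3 was 2.82%. Apart from the settings themselves, the cause of these changes was not tested. The median of the ependymal markers outside the families was -0.24 with a pseudocount of 1, and between -0.41 and -0.26 otherwise.

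The labels share replicate numbers, but same-numbered libraries correlated at only 0.01, 0.04 and 0.00 in their deviations, and among TG libraries TG2 alone correlated best with its own number. The replicate block left 0 motile cilia genes higher and 1 lower, beside 3.03% and 2.91% of all genes, and a median of -0.01. For the 9 members that average under 10 reads a library, differences may not be detectable at this depth. Standard errors were also wide at more reads, at 0.40 for Cfap52 and 0.39 for Cfap44, which averaged 31.2 and 114 reads. Over all 20952 genes 2 passed the adjusted test. With 3 libraries a group, differences in the other members may also go undetected.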
